A study of Homo sapiens with 18 samples.

Results

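Knockdown of the fusion oncogene of Ewing sarcoma changed many genes differently in TC-32 and TC-71 cells, and the contrast described here is that difference. It is the effect of siFLI1 in TC-32 minus its effect in TC-71, and it used 12 of the 18 libraries of the study. TC-32 and TC-71 are established lines of Ewing sarcoma, which arises in bone or soft tissue, and each carries a fusion of EWSR1 to FLI1. Each line gave 3 libraries with the control siRNA siNeg and 3 with siFLI1, so there were 4 groups of 3. Each siRNA was reverse transfected at 20 nM with Lipofectamine RNAiMAX, both lines grew in RPMI medium, and the column names carry 48 h. The siRNA against FLI1 also reaches the fusion transcript, and the labels name no other genetic change in either group. Each line stands for itself alone, and nothing says whether the 3 libraries of a group came from separate cultures, so p-values measure only the spread between these libraries.

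The fusion joins the activation domain of EWSR1 to the DNA-binding domain of FLI1, an ETS family transcription factor. It binds repeats of the motif GGAA, where it turns on genes that the normal cell keeps silent, and it keeps other genes low, many of them genes of mesenchymal cells. Loss of the fusion is known to lower cell cycle genes and to raise matrix, adhesion and actin genes in Ewing sarcoma lines. The contrast between the lines asks which of these responses depend on the line.

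Total counts ran from 24102487 to 33669271 per library in TC-32 and from 19685354 to 37234528 in TC-71, and mitochondrial transcripts took 9.61% to 10.6%. The authors counted TC-32 with RSEM and TC-71 with Subread, by the names of the tables, so line and counting tool cannot be told apart where a gene shares reads with another. In the region shared by the X and Y chromosomes, 16 of 17 genes with at least 10 counts on average in TC-32 had 0 counts in all TC-71 libraries. CD99, the surface marker of Ewing sarcoma, was one of them, at 3786 to 5102.5 expected counts in TC-32 and 0 in TC-71. No difference between the lines is given for any of these genes. Other defining genes of the tumour were present in both lines, among them NR0B1 and PRKCB. Summed leukocyte and epithelial markers lay between 0.596 and 12.1 CPM (counts scaled to library size with TMM factors) in every library. In TC-32 siNeg the epithelial sum was 2.95 to 3.36 CPM and the leukocyte sum 2.13 to 3.82 CPM. With siFLI1 they were 10.2 to 12.1 CPM and 8.47 to 10.7 CPM. In TC-71 the epithelial sum was 1.04 to 1.53 CPM in siNeg and 2.24 to 3.09 CPM in siFLI1. The leukocyte sum there was at most 0.861 CPM. Summed endothelial markers went from 37.8 to 39.1 CPM in TC-32 siNeg to 5.78 to 7.35 in siFLI1, almost wholly through KDR, and were between 0.763 and 2.6 in TC-71. Summed fibroblast markers were 780 to 819 CPM and 10500 to 11200 CPM in TC-32, and 151 to 169 CPM and 4130 to 4270 CPM in TC-71, mostly from the collagen gene COL3A1. The part of other cells in the results below was not tested.

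FLI1 (ENSG00000151702.16, chromosome 11 from 128686535 to 128813267 in GENCODE release 44, GRCh38) fell in both lines. Its libraries held 51.1, 53.8 and 48.3 CPM in siNeg and 24.4, 24.5 and 25.3 CPM in siFLI1 in TC-32. In TC-71 they held 46.7, 47.2 and 43.7 CPM in siNeg and 15.1, 15.5 and 17.6 CPM in siFLI1. The fall was smaller in TC-32, with a log2 fold change of -1.05 (SE 0.0662) against -1.50 (SE 0.0675) in TC-71. The difference of the log2 fold changes, TC-32 minus TC-71, was 0.46 (SE 0.0945, adjusted p = 7.28e-05), and this quantity is called the difference throughout. A positive difference means that the change went further up, or less far down, in TC-32. Each adjusted p is from edgeR's quasi-likelihood test with Benjamini-Hochberg adjustment over 18937 genes, and unless stated it belongs to the difference.

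The siFLI1 effect differed between the lines for 10342 of 18937 genes tested (54.6%). It was higher in TC-32 for 4269 genes (22.5%) and lower for 6073 (32.1%). Most differing genes moved the same way by unequal amounts: 5299 genes were called in the same direction in both lines, and of these 4105 changed more in TC-32 and 1194 more in TC-71. Changes were also larger in TC-32 over all genes, with a median absolute log2 fold change of 0.754 against 0.487 in TC-71. The values of the siRNA groups were fully apart for 74.5% of genes in TC-32 and 68.7% in TC-71 (no overlap of libraries). Of the genes tested, 73.6% passed the threshold in TC-32 and 65.4% in TC-71, and 7.31% (1385 genes) were called in opposite directions. Opposite changes of at least 2-fold in each line were found for 185 genes (0.977%), and 72 of these had a mean of at least 1 CPM in each line, 42 of them higher and 30 lower in TC-32.

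A gene was counted as responding in one line only when the difference passed the test, the change in that line was called and at least 2-fold, and the 95% interval of the log2 fold change in the other line lay inside -0.5 to 0.5. Among 12730 genes with at least 1 CPM on average in each line, 545 (4.28%) responded in TC-32 only, 236 upward and 309 downward. In TC-71 only, 173 genes (1.36%) responded, 128 upward and 45 downward. Small called changes lie inside that interval, so 46 of the TC-32 genes and 31 of the TC-71 genes were also called in opposite directions.

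**Figure D1:**
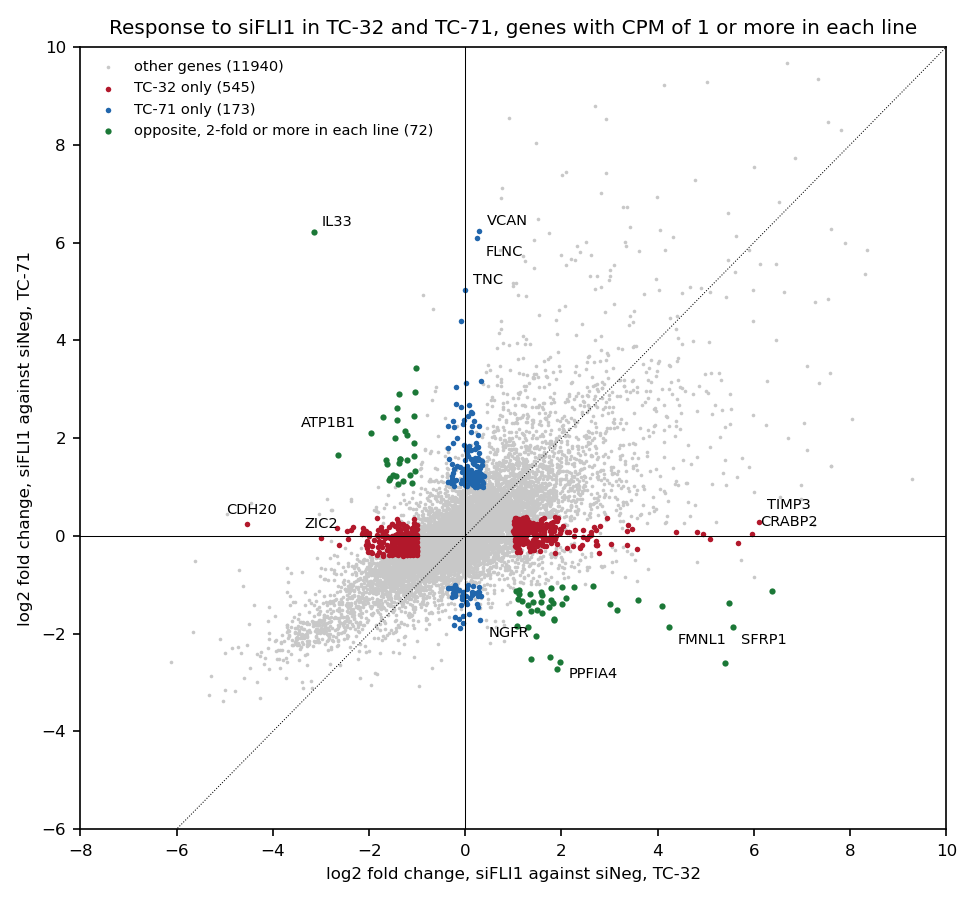
Log2 fold change with siFLI1 in TC-32 (x axis) against TC-71 (y axis) for 12722 genes with at least 1 CPM on average in each line, with 8 further genes outside the axes. Colours mark the 72 genes changed at least 2-fold in opposite directions, the 545 genes that responded in TC-32 only and the 173 that responded in TC-71 only, and most other genes lie along a shared diagonal.

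The level before knockdown differed between the classes. Of the 128 genes that rose in TC-71 only, 72 (56.2%) stood at least 2-fold higher in TC-32 siNeg than in TC-71 siNeg, against 16.7% of all 12730 genes. Of the 236 genes that rose in TC-32 only, 132 (55.9%) stood at least 2-fold lower in TC-32 siNeg, against 13.6% of all. After siFLI1 the median log2 ratio of TC-32 to TC-71 was -0.11 for the first class, where it had been 1.25, and 0.19 for the second, where it had been -1.22. Among the 30 genes that fell at least 2-fold in TC-32 and rose at least 2-fold in TC-71, 25 stood at least 2-fold higher in TC-32 siNeg, and their median log2 ratio went from 2.63 to -0.24. Among the 42 with the reverse pattern, 30 stood at least 2-fold lower in TC-32 siNeg, and the ratio went from -2.35 to 1.20. Of the 309 genes that fell in TC-32 only, 88 (28.5%) stood at least 2-fold higher in TC-32 siNeg, and the ratio went from 0.49 to -0.62. Of the 45 genes that fell in TC-71 only, 20 (44.4%) stood at least 2-fold lower in TC-32 siNeg, and the ratio went from -0.87 to 0.33. The median ratio was nearer to 0 with siFLI1 in each of these classes except the genes that fell in TC-32 only, where it was slightly farther from 0. Such levels compare tables made with different counting tools, and the siNeg libraries enter both the level and the fold change, so these shares are a description.

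Among genes that rose in TC-32 and fell in TC-71, SFRP1, a secreted WNT antagonist, had the widest gap of the 6 chosen by size. In TC-32 it stood at 2.45, 2.34 and 2.23 CPM in siNeg and 112, 108 and 113 CPM in siFLI1. In TC-71 it stood at 6.63, 7.66 and 6.13 CPM in siNeg and 1.68, 1.98 and 1.86 CPM in siFLI1. All 3 TC-32 siFLI1 libraries were above every other library, and in TC-71 the siFLI1 libraries were all below siNeg. The log2 fold changes were 5.57 and -1.87, a difference of 7.43 (SE 0.174, adjusted p = 7.33e-33). PPFIA4 encodes a liprin-alpha scaffold of presynaptic sites and had 7.41, 6.47 and 7.7 CPM in siNeg and 26.8, 29.8 and 27.6 CPM in siFLI1 in TC-32. Its TC-71 libraries held 13.4, 13.1 and 16.2 CPM in siNeg and 2.47, 2.01 and 2.65 CPM in siFLI1, so the groups were apart in each line and in opposite order, with a difference of 4.54 (SE 0.162, adjusted p = 1.11e-25). ADRA1B, an alpha-1 adrenergic receptor, went from 1.6, 2.04 and 1.95 CPM to 5.93, 7.35 and 7.63 CPM in TC-32. It went from 18, 16.3 and 17.8 CPM to 3.26, 2.21 and 2.43 CPM in TC-71, a difference of 4.64 (SE 0.213, adjusted p = 2.25e-22). FMNL1, a formin that assembles actin filaments, was near 1 CPM or below in TC-32 siNeg, at 0.519, 0.468 and 1.38 CPM, and reached 13.4, 16.7 and 13.7 CPM with siFLI1. In TC-71 it dropped from 61.4, 60.5 and 64.4 CPM to 18.7, 15.7 and 16.8 CPM, so that with siFLI1 both lines held similar levels. Its difference was 6.10 (SE 0.28, adjusted p = 5.97e-20), and 24.6% of its exon bases overlap the opposite strand, which makes its counts uncertain. MAB21L3 had log2 fold changes of 1.76 and -2.48, and SNORC, a membrane proteoglycan of cartilage, had 1.84 and -1.72.

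The reverse pattern, a fall in TC-32 and a rise in TC-71, was seen for ATP1B1, the beta subunit of the sodium pump. TC-32 held 499, 502 and 467 CPM in siNeg and 129.7, 123 and 127 CPM in siFLI1. TC-71 held 8.2, 7.98 and 7.3 CPM in siNeg and 32.5, 33.2 and 34.8 CPM in siFLI1. The lines were more than 50 times apart with siNeg by these values and less than 5 times apart with siFLI1, and the difference was -4.05 (SE 0.0822, adjusted p = 1.63e-33). PCDH19, a protocadherin of neural cells, fell from 264, 239.8 and 253 CPM to 86.2, 77.2 and 79.5 CPM in TC-32. It rose from 5.4, 4.49 and 5.85 CPM to 13.3, 16.5 and 16.8 CPM in TC-71, a difference of -3.19 (SE 0.117, adjusted p = 2.29e-22). IL33, a nuclear cytokine released by damaged cells, lies on chromosome 9 from 6215786 to 6257983. Its TC-32 libraries held 21.3, 17.5 and 18.7 CPM in siNeg and 2.15, 2.12 and 2.19 CPM in siFLI1, a log2 fold change of -3.15 (SE 0.149). In TC-71 siNeg it was at or under 3 counts in each library, 0.0667, 0.136 and 0 CPM, and it reached 4.69, 4.23 and 5.29 CPM with siFLI1. NR4A3, an orphan nuclear receptor of the immediate early class, went from 3.49, 3.23 and 3.04 CPM to 1.03, 1.23 and 0.718 CPM in TC-32. In TC-71 its libraries went from 0.8, 0.68 and 0.727 CPM to 3.47, 4.8 and 3.84 CPM, and the difference was -4.14 (SE 0.321, adjusted p = 4.91e-15). TSPAN12, a tetraspanin that assists Norrin signalling through a Frizzled receptor, had log2 fold changes of -1.47 and 2.01, and C6orf141 had -1.62 and 1.46.

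**Figure D2:**
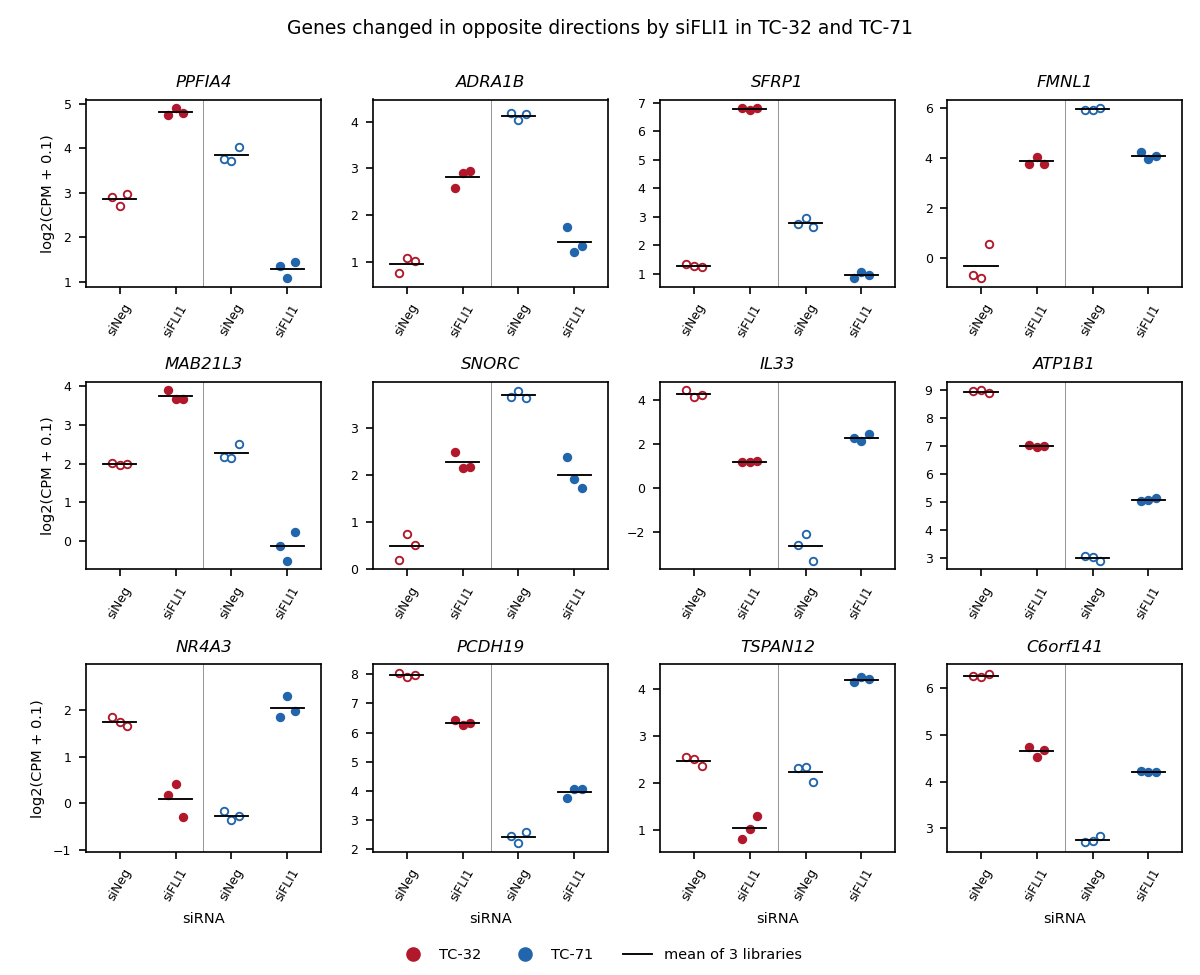
Expression of the 12 named opposite genes as log2(CPM + 0.1) in each of the 12 libraries (points, open for siNeg and filled for siFLI1) with the mean of 3 libraries (line); the y axes differ between panels. In every panel the siFLI1 points lie on opposite sides of the siNeg points in TC-32 (red) and TC-71 (blue).

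CRABP2, which carries retinoic acid inside cells, led the genes that rose in TC-32 only. It went from 4.91, 5.15 and 5.51 CPM to 311, 333 and 319 CPM in TC-32, a log2 fold change of 5.95 (SE 0.0861). In TC-71 it stayed low, at 1.77, 1.77 and 1.3 CPM in siNeg and 1.36, 1.78 and 1.69 CPM in siFLI1, with a 95% interval of -0.30 to 0.36 on the log2 scale, and the difference was 5.92 (SE 0.184, adjusted p = 8.38e-25). TIMP3, an inhibitor of metalloproteinases bound to the matrix, went from 6.56, 6.04 and 5.47 CPM to 427, 405 and 409.9 CPM in TC-32. In TC-71 it held 37.1, 34.9 and 34.4 CPM in siNeg and 44.1, 43.6 and 42.1 CPM in siFLI1, where the change was called but small, at 0.29 (SE 0.0527). RIPOR3 was the same kind of gene with another starting level: 0.897, 1.19 and 0.618 CPM in TC-32 siNeg and 44.7, 48.4 and 46 CPM in siFLI1. In TC-71 it had 20.8, 19.8 and 20.4 CPM in siNeg already, and 19.9, 16.1 and 19 CPM in siFLI1. GJA5, the gap junction protein connexin 40, and RHOU, a small GTPase, had differences of 5.14 (SE 0.272, adjusted p = 2.25e-22) and 4.91 (SE 0.556, adjusted p = 1.24e-13). GJA5 shares 20.3% of its exon bases with the opposite strand, and RHOU had at most 3 counts in each TC-32 siNeg library.

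Among the 5 named genes that fell in TC-32 only, ZIC2, a zinc finger transcription factor of neural development, dropped from 126, 129.6 and 132 CPM to 16.1, 16.9 and 15.3 CPM. TC-71 held 22.5, 24.6 and 24.1 CPM in siNeg and 22.9, 24.7 and 21.4 CPM in siFLI1, so the TC-32 siFLI1 libraries ended below every TC-71 library, and the difference was -2.95 (SE 0.0912, adjusted p = 5.98e-27). FGF13, an intracellular member of the FGF family that binds sodium channels, dropped from 51.4, 47.6 and 48.2 CPM to 8.68, 7.45 and 7.22 CPM, close to the 5.57 to 6.82 CPM of TC-71. HOMER2, a scaffold of postsynaptic sites, was at 42.2, 45.4 and 44 CPM and 8.94, 7.88 and 7.25 CPM in TC-32. Its TC-71 libraries all lay between 29.1 and 34.1 CPM, and the difference was -2.54 (SE 0.105, adjusted p = 4.94e-23). CDH20, a classical cadherin, and TNFAIP6, a hyaluronan-binding protein, had differences of -4.77 (SE 0.472, adjusted p = 1.43e-15) and -2.51 (SE 0.236, adjusted p = 3.09e-12).

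The 5 named genes that rose in TC-71 only were TNC, VCAN, FLNC, ATP8B1 and CYP27C1. TNC, the matrix protein tenascin C, was high in TC-32 throughout, at 3650, 3515 and 3701 CPM in siNeg and 3598, 3731 and 3446 CPM in siFLI1. In TC-71 it went from 16.8, 15.1 and 16.1 CPM to 505, 526 and 532 CPM, a log2 fold change of 5.02 (SE 0.0513) against -0.01 (SE 0.0387) in TC-32. VCAN, the proteoglycan versican, reached 134, 151 and 165 CPM in TC-71 from 1.67, 2.63 and 1.83 CPM. In TC-32 it held 13.8, 12.4 and 11.1 CPM in siNeg and 15.5, 13.7 and 16 CPM in siFLI1, and its groups overlapped there, so with siFLI1 it stood higher in TC-71. FLNC, a filamin that crosslinks actin in muscle, rose in TC-71 from 0.333, 0.363 and 0.221 CPM to 19.4, 22.1 and 20.9 CPM. All TC-32 libraries of FLNC lay between 365 and 500.1 CPM, and the difference was -5.86 (SE 0.304, adjusted p = 1.31e-25). ATP8B1, a phospholipid flippase, and CYP27C1, a cytochrome P450 that converts retinoids, had differences of -4.48 (SE 0.398, adjusted p = 6.29e-18) and -3.24 (SE 0.166, adjusted p = 6.48e-20).

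Downward responses in TC-71 only included NGFR, the p75 neurotrophin receptor, which dropped from 52.2, 55.6 and 57.9 CPM to 17.5, 17.1 and 15.9 CPM. In TC-32 it rose slightly, from 85.7, 82.8 and 92.8 CPM to 98.9, 113 and 110.1 CPM, so it was also called opposite, and 27.2% of its exon bases overlap the opposite strand. TNS1, a tensin that links integrins to actin, dropped from 115, 115 and 129.9 CPM to 38, 33.9 and 33 CPM in TC-71. In TC-32 its libraries stayed between 98.3 and 107 CPM, with a log2 fold change of -0.05 (SE 0.0541). GRAMD1B, which moves cholesterol at membrane contact sites, HLA-DPB1, a chain of an MHC class II molecule, and BCAS4 had log2 fold changes of -1.60, -1.89 and -1.46 in TC-71 and 0.08, -0.11 and 0.26 in TC-32.

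**Figure D3:**
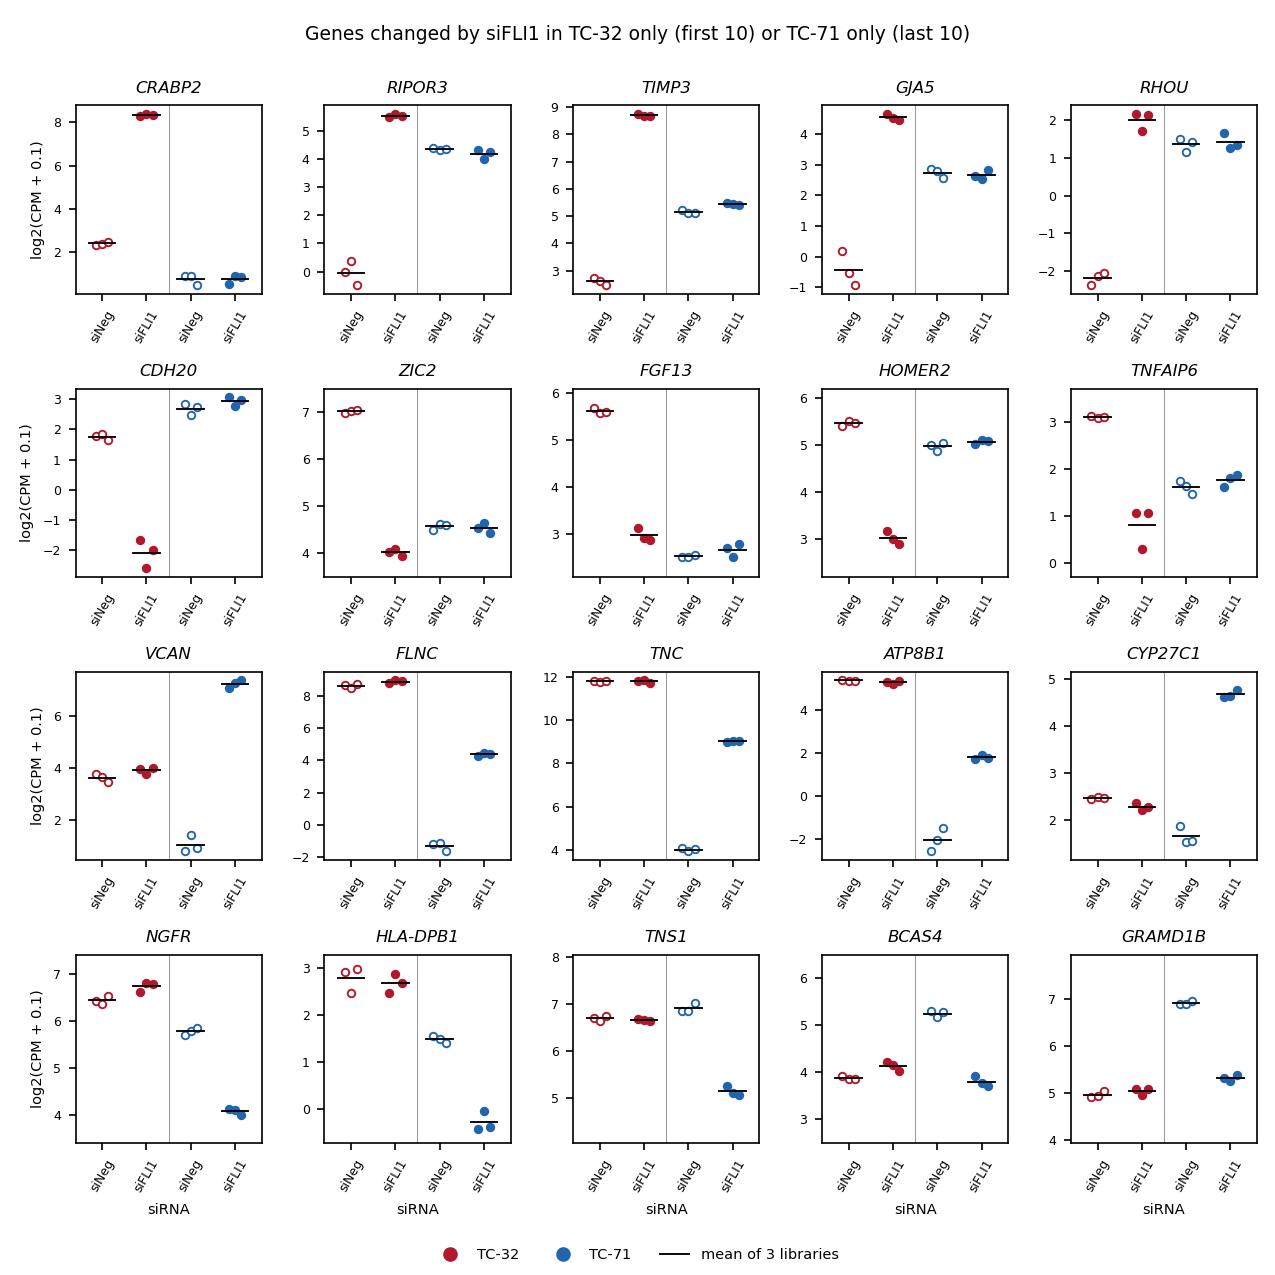
Expression of the 20 named genes that responded in one line only, as log2(CPM + 0.1) per library, with the mean of 3 libraries as a line and a separate y axis in each panel. The first 10 panels show genes that moved in TC-32 (red) while the TC-71 points (blue) stayed level, and the last 10 show the reverse.

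Some genes responded in one line and were at or under 3 counts in every library of the other. There were 882 genes at this limit in TC-71, of which 529 changed at least 2-fold in TC-32 by the test, and 984 at this limit in TC-32, of which 372 did so in TC-71. Over all 18937 genes tested, 6796 changed at least 2-fold in TC-32 and 4357 in TC-71. Genes at this limit passed the low-count filter only through the other line, so their counts follow in part from the filter. KRT15, an epithelial keratin, went from 0.283, 0.255 and 0.238 CPM to 155, 167 and 163 CPM in TC-32, while TC-71 never held more than 3 counts. IFITM10, ANGPTL7 and UBD, a ubiquitin-like modifier, had 0 counts in TC-32 siNeg and were at least 65.3-fold, 37.3-fold and 58.1-fold higher with siFLI1, against the floor of 3 counts per library. UBD shares 80.8% of its exon bases with another gene on its own strand, and IFITM10 shares 22.2%. In TC-71, TRIL rose from 2.73, 3.72 and 2.75 CPM to 62.4, 60.7 and 56.7 CPM, and ADAMTS5, an aggrecan-cleaving protease, rose from 0.4, 0.136 and 0.348 CPM to 23.8, 27.7 and 31 CPM. CDKN2B, an inhibitor of the cyclin D kinases, went from 2, 3 and 2 counts to 338, 417 and 551 counts in TC-71, and TC-32 held 1 count over its 6 libraries. ANOS1, an extracellular matrix protein of neuronal migration, rose from 0.367, 0.0906 and 0.19 CPM to 7.05, 7.05 and 8.32 CPM in TC-71. The difference itself passed edgeR's test for KRT15 (adjusted p = 0.0156) and IFITM10 (adjusted p = 2.67e-08), and not for the other 6, whose adjusted p ran from 0.0632 to 1. The call of KRT15 rested on 1 library: without TC-71 siNeg replicate 1 its adjusted p was 0.983. TNS3, a tensin of focal adhesions, went from 51.4, 52.6 and 57.8 CPM to 711, 758 and 699 CPM in TC-32 while each TC-71 library held 3 counts or fewer, and its difference of 5.21 (SE 1.68, adjusted p = 0.00288) lost its call without TC-71 siNeg replicate 3, at an adjusted p of 0.877.

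Gene lists group these differences by known function. Each list is read against the 54.6% of all genes tested whose effect differed, the 68.9% among the 12730 genes with at least 1 CPM on average in each line, and a median difference of -0.08 over all genes tested. Counts of opposite members are read against the 7.31% of all genes tested that were called in opposite directions. Of all genes tested, 37.7% were called higher and 36% lower with siFLI1 in TC-32, and 32.4% higher and 33% lower in TC-71. The shares of differing genes in the cytokine (63.3%), interferon (66.7%), protease (66.7%) and NOTCH (54.5%) lists were below that of the expressed genes, and that of the matrix glycoproteins (70%) was close to it, so these lists are described by their members and not by how many differed. Cell cycle genes fell in both lines and further in TC-32. Of 36 genes of the mitotic spindle, kinetochore and checkpoint, 36 differed and all 36 were lower in TC-32, with medians of -3.15 in TC-32 and -1.84 in TC-71 on the log2 scale. CENPF, a large kinetochore protein, went from 874, 920.4 and 873 CPM to 89.2, 75.5 and 82 CPM in TC-32. In TC-71 it went from 264, 273 and 266 CPM to 85.1, 75 and 76.2 CPM, so the lines ended at similar levels from unequal starts. BUB1, a spindle checkpoint kinase, started from similar levels in both lines, 184, 189 and 170.4 CPM and 179, 184 and 175 CPM, and ended at 18.1, 16.5 and 16.2 CPM in TC-32 and 51.2, 45.3 and 49.2 CPM in TC-71. Its difference was -1.54 (SE 0.08, adjusted p = 1.23e-19). NUF2 and SPC25, both of the NDC80 kinetochore complex, had differences of -1.89 (SE 0.151, adjusted p = 8e-11) and -1.66 (SE 0.177, adjusted p = 5.71e-11).

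DNA replication and nucleotide supply genes gave the same picture, with 37 of 39 lower in TC-32 and medians of -2.98 and -1.94. RRM2, a subunit of ribonucleotide reductase, dropped from 435, 448 and 429 CPM to 35.6, 30.2 and 34.7 CPM in TC-32. In TC-71 it dropped from 107, 105 and 94.5 CPM to 30.9, 27.7 and 27.8 CPM, and the difference was -1.89 (SE 0.081, adjusted p = 1.94e-21). MCM10, a factor of DNA replication, had log2 fold changes of -4.24 and -2.38. CCNE1, cyclin E1, was the member that responded in TC-32 only, from 21.5, 20.2 and 19.1 CPM to 6.32, 5.4 and 5.63 CPM, while TC-71 went from 7.1, 7.89 and 6.89 CPM to 6.77, 5.84 and 6.13 CPM. POLE and GINS4 were the 2 members that did not pass the test of the difference, at 0.003 (adjusted p = 1) and -0.16 (adjusted p = 0.17), and GINS4 overlaps the opposite strand over 23.4% of its exon bases. FLI1 itself fell less in TC-32, as given above.

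Cytokine and NF-kappa-B response genes rose in TC-32, and fewer of them rose in TC-71. NF-kappa-B is a family of transcription factors held in the cytoplasm by IkB proteins, and its targets include its own inhibitors, chemokines and adhesion molecules. Of 35 genes in this list, 30 could be tested, and 29 rose in TC-32, where 37.7% of all genes did. CXCL6, CCL7 and IL6 held at most 3 counts in every library outside TC-32 siFLI1. They passed the low-count filter through that group alone, so their rise followed from the filter. The count of 29 and the TC-32 median below rest in part on such genes. In TC-71 12 rose, a share not far above the 32.4% of all genes. The effect was higher in TC-32 for 16 and lower for 3, with median log2 fold changes of 3.94 and 0.62. Several members, among them CXCL1, CXCL12 and CCL2, held at most 3 counts in every TC-71 library, so the TC-71 median rests in part on such genes. The median difference was 3.35 over the 30 tested members and 1.81 over the 10 with at least 1 CPM on average in each line. NFKBIA, the IkB-alpha inhibitor, rose from 18.1, 20.0 and 18.6 CPM to 115, 115 and 108 CPM in TC-32 and was level in TC-71, at 29.9, 31.8 and 30.1 CPM in siNeg and 28.8, 31.5 and 31 CPM in siFLI1. TNFAIP3, the ubiquitin-editing enzyme A20, another inhibitor of the pathway, rose from 9.39, 9.49 and 10.3 CPM to 81.6, 82.7 and 70.2 CPM in TC-32. In TC-71 it fell, from 17.9, 18.7 and 20.0 CPM to 7.27, 6.81 and 7.3 CPM, which made it one of 3 members with opposite changes and gave a difference of 4.41 (SE 0.118, adjusted p = 2.75e-29). BIRC3, an inhibitor of apoptosis, was also opposite, going from 0.661, 1.11 and 0.998 CPM to 27.1, 24.6 and 21.6 CPM in TC-32 and from 1.13, 1.09 and 1.17 CPM to 0.573, 0.705 and 0.525 CPM in TC-71. The third was IL33, in the reverse direction.

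Subunits of the factor itself took part. RELB rose from 2.6, 2.47 and 3.28 CPM to 38.6, 45.1 and 40.5 CPM in TC-32 and from 2.43, 3.85 and 3.32 CPM to 4.58, 5.5 and 4.29 CPM in TC-71, a difference of 3.31 (SE 0.202, adjusted p = 7.85e-17). NFKB2 rose in TC-32 only, from 20.2, 21.1 and 18.6 CPM to 85, 90.3 and 84.7 CPM, against 19.2, 17.9 and 20.2 CPM in siNeg and 20.4, 19.6 and 20.4 CPM in siFLI1 in TC-71. TNFAIP2 had a difference of 6.21 (SE 0.618, adjusted p = 5.59e-15). VCAM1, a receptor for leukocyte integrins, rose from 0.33, 0.596 and 0.0951 CPM to 90.4, 89.3 and 76.7 CPM in TC-32 and stayed below 1 CPM in TC-71. LIF, a cytokine of the interleukin 6 family, went the other way: it rose in both lines, from at most 3 counts per library in TC-71 siNeg to 5.37, 5.44 and 4.17 CPM, and from 0.802, 0.468 and 1.09 CPM to 11.8, 12.4 and 12.8 CPM in TC-32. Leukocyte markers, which could bring such genes with them, summed to 2.13 to 3.82 CPM in TC-32 siNeg and 8.47 to 10.7 in siFLI1, mostly from CD68, with CD3E at 0 counts in every TC-32 library and PTPRC at most 1 count.

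Stretches from the promoters of TNFAIP3, NFKBIA, NFKB2 and BIRC3, members of the list above, are shown because these genes rose in TC-32. In TC-71 TNFAIP3 and BIRC3 fell, and NFKBIA and NFKB2 were level. RefSeq promoter windows (GRCh38.p14) cover 250 bases before to 50 after the start of a gene. A form of the NF-kappa-B motif, 3 G, any 2 bases, 3 T and 2 C in a row, was searched on both strands. It stood in the windows of 13 of the 27 list genes that had one, against 351 of 12731 (2.76%) of the genes tested and 670 of 35114 (1.91%) of all windows. The list holds known NF-kappa-B response genes, so its share follows in part from how it was chosen. List members whose effect differed between the lines held the motif in 7 of 15 windows (46.7%), against 48.1% for the whole list. Of 183 genes with a window that rose in TC-32 only, 7 (3.83%) held it. Each line gives the stretch around the match, 5′ to 3′ on the strand of the gene, with the match in capitals.
TNFAIP3: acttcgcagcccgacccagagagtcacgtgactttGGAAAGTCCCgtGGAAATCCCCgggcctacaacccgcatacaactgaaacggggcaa
NFKBIA: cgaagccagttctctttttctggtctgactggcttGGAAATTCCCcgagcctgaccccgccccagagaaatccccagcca
NFKB2: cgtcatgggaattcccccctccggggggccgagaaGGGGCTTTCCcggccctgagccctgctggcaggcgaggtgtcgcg
BIRC3: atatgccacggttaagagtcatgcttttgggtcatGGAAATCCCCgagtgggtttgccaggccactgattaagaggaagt
The stretches lie at chr6:137867157-137867248, + strand for TNFAIP3, chr14:35404786-35404865, - strand for NFKBIA, chr10:102394465-102394544, + strand for NFKB2 and chr11:102317250-102317329, + strand for BIRC3. TNFAIP3 holds 2 matches in a row. A match is a description of the letters, and binding was not measured here.

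Genes of antigen presentation by MHC class I rose in both lines, more of them in TC-32. This machinery cuts proteins in the proteasome, carries the peptides through the TAP transporter and loads them on HLA molecules with tapasin. Of 18 genes, 17 differed, 10 higher and 7 lower in TC-32. In TC-32 16 rose, and in TC-71 10 rose, with medians of 0.92 and 0.19. TAPBP, which encodes tapasin, rose from 119, 126 and 125 CPM to 404, 446 and 422 CPM in TC-32, while TC-71 held 119.7, 116 and 123 CPM in siNeg and 137, 132 and 138 CPM in siFLI1. HLA-E, a nonclassical class I molecule, rose from 83.1, 80.9 and 84.3 CPM to 156, 167 and 161 CPM in TC-32 and was level in TC-71, between 141 and 150.2 CPM. HLA-B went up in TC-32 and down in TC-71, by 1.09 and -0.42 on the log2 scale, but 32.7% of its exon bases are shared on its own strand, so it is uncertain. HLA-F, TAPBPL, TAP1 and TAPBP made up the 4 members that responded in TC-32 only, and TAPBP and HLA-F overlap the opposite strand over 21% and 28% of their exon bases. NLRC5, a transactivator of class I genes, responded in TC-71 only, from 0.9, 0.861 and 0.759 CPM to 3.83, 2.58 and 2.53 CPM, against 19.1, 17.4 and 18.8 CPM in siNeg and 21.5, 22.9 and 20.2 CPM in siFLI1 in TC-32. The NF-kappa-B letters stood in 4 of 14 windows of this list, among them TAP1 and TAPBP.
TAP1: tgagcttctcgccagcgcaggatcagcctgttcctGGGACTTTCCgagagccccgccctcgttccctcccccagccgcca
TAPBP: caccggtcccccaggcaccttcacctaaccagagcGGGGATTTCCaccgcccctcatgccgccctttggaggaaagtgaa
These stretches lie at chr6:32853732-32853811, - strand and chr6:33314090-33314169, - strand.

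Interferon-stimulated genes, a set of antiviral genes, were mixed. Of 36 genes, 24 differed, 18 higher and 6 lower in TC-32, and 29 rose in each line. IFI44L rose from at most 3 counts per library in TC-32 siNeg, 0.0944, 0.0851 and 0.0951 CPM, to 4.25, 4.44 and 3.1 CPM, and in TC-71 it rose from 2.63, 3.04 and 2.37 CPM to 6.23, 5.67 and 7.3 CPM. IFI44 responded in TC-32 only, with log2 fold changes of 3.03 and -0.16, although its level was higher in TC-71 throughout. OASL, a protein related to the oligoadenylate synthetases, rose in TC-71, from 4.83, 4.26 and 5.18 CPM to 22.9, 21.4 and 24 CPM, with overlapping groups in TC-32. IFI27, IFI6 and IFIH1, a sensor of viral RNA, changed in opposite directions, with differences of 2.50 (SE 0.358, adjusted p = 5.61e-08), 1.85 (SE 0.133, adjusted p = 2.26e-15) and 1.25 (SE 0.136, adjusted p = 2.57e-10), all higher in TC-32. IFI6 shares 23.1% of its exon bases on its own strand and is uncertain.

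Targets of YAP and TEAD, transcription regulators that respond to cell tension and contact, rose further in TC-71. Of 26 genes, 24 differed, 3 higher and 21 lower in TC-32, with medians of 1.00 in TC-32 and 1.72 in TC-71. CCN1, a matricellular protein and a classical target, went from 89.9, 92.2 and 85 CPM to 378, 379 and 360.5 CPM in TC-32. In TC-71 it went from 39, 39.8 and 37 CPM to 977, 1050 and 986 CPM, a difference of -2.64 (SE 0.0645, adjusted p = 3.73e-30). CCN2, a related protein also known as CTGF, rose from 72.2, 72.9 and 66.4 CPM to 211, 197 and 194 CPM in TC-32 and from 4.27, 4.53 and 3.35 CPM to 336, 374 and 364 CPM in TC-71. TC-71 therefore began below TC-32 for CCN2 and ended above it, and CCN2 overlaps the opposite strand over 11.9% of its exon bases. ANKRD1, a nuclear ankyrin repeat protein, had 0 counts in all TC-71 siNeg libraries and 145, 154 and 150.1 CPM in siFLI1, at least 1099-fold higher against the floor of 3 counts per library. In TC-32 it went from 25.4, 26.2 and 23.2 CPM to 81.3, 74.2 and 72 CPM. NT5E, the ectonucleotidase CD73, had a difference of -5.36 (SE 0.234, adjusted p = 1.21e-27), and DLC1 and GADD45A fell in TC-32 and rose in TC-71. WWTR1, which encodes the YAP relative TAZ, responded in TC-71 only, from 27.4, 30.1 and 29.5 CPM to 91.1, 104 and 102 CPM, against 87.7, 88.5 and 86.6 CPM in siNeg and 106, 98.2 and 96.9 CPM in siFLI1 in TC-32.

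Genes of actin stress fibres and contraction, many of which respond to serum response factor, followed the same order. Of 24 genes, 23 were tested, 3 were higher and 18 lower in TC-32, with medians of 1.00 and 1.57. CALD1, caldesmon, rose from 342, 358 and 338 CPM to 712, 665 and 684 CPM in TC-32 and from 7.5, 6.25 and 7.02 CPM to 222, 252 and 252 CPM in TC-71, a difference of -4.13 (SE 0.0862, adjusted p = 4.83e-33). ACTG2, smooth muscle gamma actin, began below 1 CPM in both lines and reached 48.1, 46.3 and 46.3 CPM in TC-32 and 252, 276 and 264 CPM in TC-71. ACTA2, smooth muscle alpha actin, had log2 fold changes of 1.99 and 5.75, and 36% of its exon bases overlap the opposite strand. MYLK, myosin light chain kinase, ran against the list: it rose from 20.6, 18.4 and 19.7 CPM to 120.1, 119 and 119.9 CPM in TC-32 and fell from 14.3, 15.1 and 16 CPM to 10.9, 12.2 and 12.2 CPM in TC-71. PDLIM5, a scaffold of actin filaments, fell in TC-32 and rose in TC-71, a difference of -2.76 (SE 0.0723, adjusted p = 3.71e-29). The CArG box, the motif of serum response factor, stood in 8 of 21 windows of this list (38.1%), against 1.29% of all windows. The letters ACATTCC, a TEAD motif, stood in 4 of 18 windows of the YAP list (22.2%), against 3.46% of all windows. Many members of these lists are known targets of these factors, so the shares follow in part from how the lists were chosen. They do not bear on the difference between the lines. The promoters of ACTG2, which holds 2 CArG boxes, and of CCN2 carry these motifs as follows.
ACTG2: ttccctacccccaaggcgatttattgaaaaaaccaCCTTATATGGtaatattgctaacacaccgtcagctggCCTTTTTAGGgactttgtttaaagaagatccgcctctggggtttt
CCN2: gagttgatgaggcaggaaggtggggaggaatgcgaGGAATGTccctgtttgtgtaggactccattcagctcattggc
They lie at chr2:73892863-73892979, + strand and chr6:131951426-131951502, - strand.

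**Figure D4:**
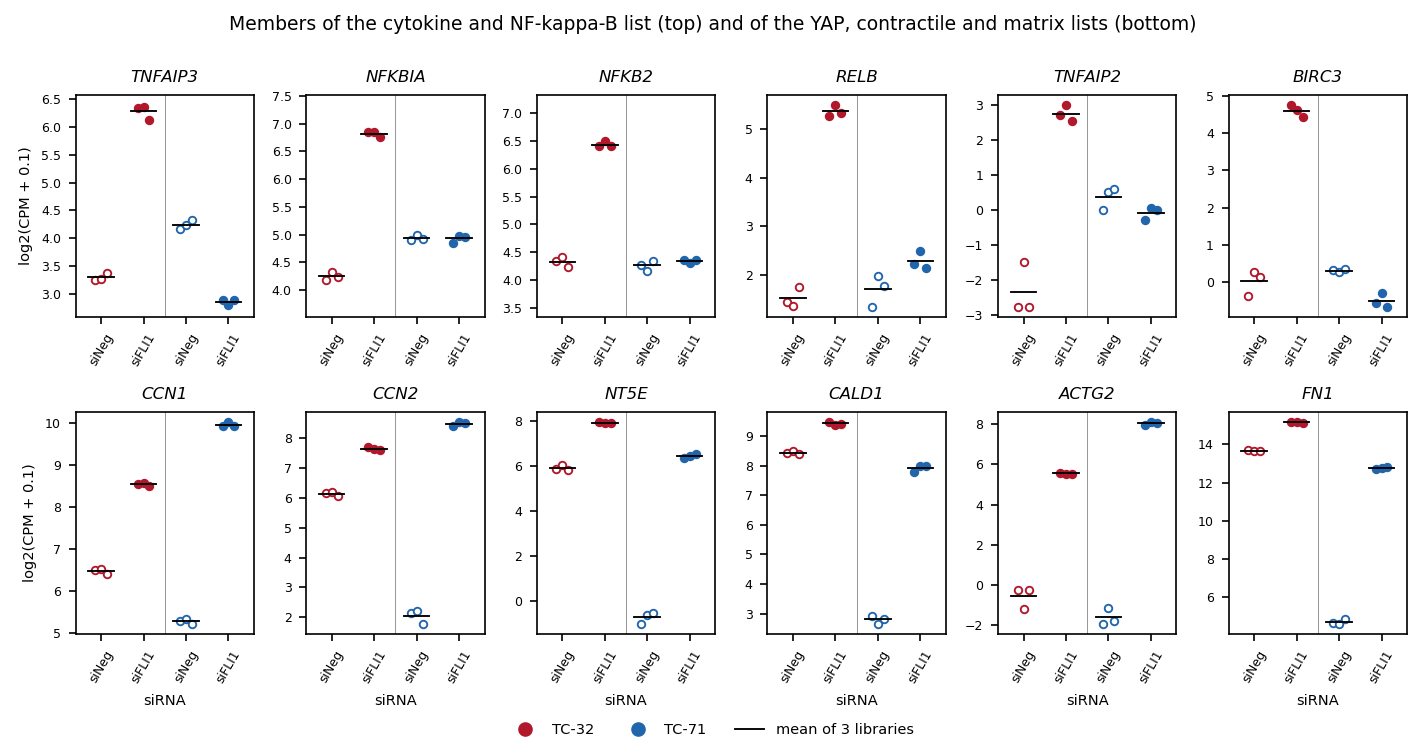
Expression as log2(CPM + 0.1) per library of 6 cytokine and NF-kappa-B genes (top) and 6 YAP, contractile and matrix genes (bottom), with the mean of 3 libraries as a line and a separate y axis in each panel. In the top row the TC-32 siFLI1 points (filled red) are the highest, and in the bottom row the open blue points, TC-71 siNeg, have the lowest mean.

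Immediate early transcription factors of the AP-1 group also rose further in TC-71, and 5 of 22 changed in opposite directions. Of the 22, 18 differed, 4 higher and 14 lower in TC-32. FOS, a partner of JUN in AP-1, fell from 167, 173 and 178 CPM to 110.4, 118 and 107 CPM in TC-32. In TC-71 it rose from 7, 9.25 and 8.25 CPM to 56.5, 76 and 57.6 CPM, still below TC-32, and the difference was -3.59 (SE 0.166, adjusted p = 3.81e-10). FOSL1, the related FRA1, rose in TC-71 only, from 1.7, 2.08 and 2.25 CPM to 10.8, 12.3 and 11.3 CPM, to the level of TC-32, where it held 9.96, 10.5 and 10.3 CPM in siNeg and 11, 11.8 and 11.3 CPM in siFLI1. EGR2, a zinc finger factor, went the other way, from 6.51, 6.64 and 6.75 CPM to 21.3, 18.5 and 16.5 CPM in TC-32 and from 148, 144 and 149.8 CPM to 51.1, 52.6 and 50.7 CPM in TC-71. NR4A2, a relative of NR4A3, and BATF3 had differences of -2.68 (SE 0.208, adjusted p = 1.59e-14) and 1.59 (SE 0.205, adjusted p = 7.9e-09).

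Ligands of the EGF receptor family and feedback genes of the ERK pathway were divided. The ERK cascade carries growth factor signals to the nucleus, and its feedback genes include phosphatases and Sprouty proteins. Of 26 genes, 24 were tested, 8 were higher and 12 lower in TC-32, and 5 changed in opposite directions. HBEGF, a ligand of the EGF receptor, had the largest difference of a member with a standard error. It rose from 0.966, 0.77 and 0.917 CPM to 322, 348 and 334 CPM in TC-71 and from 3.16, 2.72 and 2.09 CPM to 5.76, 4.64 and 4.68 CPM in TC-32, a difference of -7.63 (SE 0.217, adjusted p = 7.94e-28). TGFA, another ligand, fell in TC-71 from 24.4, 22.1 and 24.3 CPM to 5.34, 4.43 and 4.89 CPM and rose in TC-32 from at most 1 count per library to 0.945, 0.596 and 0.302 CPM. NRG1, a ligand of ERBB3 and ERBB4, fell from 12.1, 13.3 and 12.1 CPM to 7.82, 6.82 and 7.86 CPM in TC-32 and rose from 42, 41.3 and 43.6 CPM to 88.5, 96.1 and 92.9 CPM in TC-71. Its receptor ERBB4 moved the same way, with log2 fold changes of -1.15 and 1.24. Among feedback genes, DUSP5, a phosphatase of ERK, had a difference of -2.74 (SE 0.108, adjusted p = 8.62e-24), and SPRY4 rose from at most 3 counts per library in TC-71 siNeg to 4.83, 4.87 and 5.32 CPM.

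ETS family genes, relatives of the DNA-binding part of the fusion, included 5 opposite members among 22 tested, with 10 effects higher and 7 lower in TC-32. ETV1 and ETV5, closely related factors of the PEA3 group, changed in opposite directions to each other in each line. ETV1 fell from 35.4, 33.8 and 32.4 CPM to 12, 13.3 and 14.2 CPM in TC-32 and rose from 2.47, 2.67 and 3.04 CPM to 7.16, 8.59 and 8.65 CPM in TC-71. ETV5 rose from 0.802, 0.979 and 0.903 CPM to 3.87, 2.75 and 3.17 CPM in TC-32 and fell from 24.3, 22.9 and 23.7 CPM to 8.7, 6.38 and 6.94 CPM in TC-71. Their differences were -2.94 (SE 0.152, adjusted p = 3.64e-20) and 3.54 (SE 0.25, adjusted p = 8.46e-17). ETS2 rose from 23.3, 20.9 and 17.9 CPM to 93.9, 97.4 and 96.8 CPM in TC-32 and fell from 108, 102 and 116 CPM to 77.6, 72.1 and 74.6 CPM in TC-71, a difference of 2.75 (SE 0.0887, adjusted p = 1.43e-25). ETS1 rose in both lines and further in TC-32, with a difference of 1.03 (SE 0.114, adjusted p = 4.57e-10). ETV3 and ELK4 fell in TC-32 and rose in TC-71.

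Genes known to be activated by the fusion all differed, 24 of 24, with 9 higher and 15 lower in TC-32. Their medians were -2.17 in TC-32 and -1.38 in TC-71, and 19 fell in TC-32 against 21 in TC-71. TERT, the catalytic subunit of telomerase, fell from 7.22, 6.34 and 8.41 CPM to 0.0859, 0.0662 and 0.151 CPM in TC-32 and from 40.1, 37.3 and 41.8 CPM to 8.09, 6.48 and 5.7 CPM in TC-71, a difference of -3.55 (SE 0.573, adjusted p = 3.8e-10). NPY1R, a receptor of neuropeptide Y, and LIPI, a lipase, also fell further in TC-32, with differences of -3.05 (SE 0.205, adjusted p = 1.16e-17) and -2.22 (SE 0.228, adjusted p = 2.06e-10). A group of 4 went against the list in TC-32, where they rose, while they fell in TC-71: ADRB3, FCGRT, IGF1 and XG. FCGRT, the neonatal Fc receptor, rose from 47.9, 49.5 and 51.7 CPM to 89, 102 and 91.7 CPM in TC-32 and fell from 192, 174 and 198 CPM to 79, 74.3 and 68.3 CPM in TC-71. XG, a blood group protein, rose from 23.6, 22.6 and 22.7 CPM to 33.6, 32.6 and 33.9 CPM in TC-32 and fell from 18.6, 16.6 and 17.4 CPM to 5.55, 6.95 and 6.68 CPM in TC-71. IGF1 and ADRB3 are uncertain, since 82.5% of the exon bases of IGF1 overlap the opposite strand and 24% of those of ADRB3 overlap its own strand. The expected counts of XG in TC-32 were not all whole numbers, so it may share reads with another gene and is uncertain too. CAV1, caveolin-1, the coat protein of caveolae, fell from 3282, 3291 and 3188 CPM to 926, 929 and 932 CPM in TC-32 and went from 281, 281 and 272 CPM to 301, 309.6 and 297 CPM in TC-71, a small called rise of 0.12 (SE 0.0374).

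The letters GGAAGGAA, the only repeat searched for the fusion, stood in 37 of 569 windows (6.5%) of the genes that fell in TC-32 and rose in TC-71. They stood in 23 of 485 (4.74%) of those with the reverse pattern and in 626 of 12731 (4.92%) of the genes tested. In the list of genes known to be activated by the fusion they stood in 1 of 18 windows (5.56%), near the share of the genes tested. Fusion-bound repeats are often far from promoters, and only the promoter window was read. The stretches of IL33, CAV1 and TNC, which are described above, are shown with the match in capitals, and in all 3 it reads as the complement on the strand of the gene.
IL33: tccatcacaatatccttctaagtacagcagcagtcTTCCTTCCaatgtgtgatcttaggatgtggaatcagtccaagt
CAV1: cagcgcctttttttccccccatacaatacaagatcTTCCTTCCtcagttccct
TNC: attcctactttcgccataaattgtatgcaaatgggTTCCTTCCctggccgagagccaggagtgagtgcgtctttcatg
They lie at chr9:6215034-6215111, + strand, chr7:116524956-116525008, + strand and chr9:115118293-115118370, - strand.

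Of 32 WNT pathway genes tested, 8 changed in opposite directions, against 7.31% of all genes tested. WNT proteins bind Frizzled receptors and stabilise beta-catenin, and the pathway induces its own inhibitors. The 8 were the antagonists SFRP1 and FRZB, the receptors LGR5 and FZD8, the ligand WNT5A, the feedback genes NKD1 and AXIN2, and the nuclear factor TCF7. All but SFRP1 fell in TC-32 and rose in TC-71. LGR5, a receptor of R-spondins and a target of the pathway, went from 87.1, 85.7 and 82.8 CPM to 46.7, 44.1 and 49.1 CPM in TC-32. In TC-71 it went from 1.1, 0.77 and 0.696 CPM to 23.5, 27.3 and 28 CPM, a difference of -5.80 (SE 0.192, adjusted p = 2.67e-30). NKD1, an intracellular inhibitor, fell from 20.5, 21.8 and 21.9 CPM to 11.2, 8.51 and 11 CPM in TC-32 and rose from 2, 1.54 and 2.09 CPM to 5.8, 7.62 and 7.84 CPM in TC-71. AXIN2, a scaffold of the complex that degrades beta-catenin, had smaller changes of -0.34 (SE 0.134) and 0.64 (SE 0.114), and 25.3% of its exon bases are shared on its own strand. Over the list, 11 genes were higher and 14 lower in TC-32. Among ligands, WNT2B rose further in TC-32 and WNT5B further in TC-71, with differences of 3.36 (SE 0.248, adjusted p = 4.72e-15) and -4.12 (SE 0.466, adjusted p = 1.57e-13), and WNT2B overlaps the opposite strand over 21.5% of its exon bases.

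Of 22 NOTCH pathway genes tested, 6 were higher and 6 lower in TC-32, a share of 54.5% against 54.6% of all genes tested, and 4 were opposite. NOTCH receptors are cleaved when a ligand on a neighbouring cell binds, and their released part induces HEY and HES factors. JAG2, a ligand, rose from 20.7, 17.5 and 20.0 CPM to 44.9, 52.4 and 51.6 CPM in TC-32 and fell from 106, 103 and 104 CPM to 39.3, 36 and 32.9 CPM in TC-71. JAG1, the related ligand, rose in both and further in TC-71, with a difference of -1.80 (SE 0.0685, adjusted p = 6.76e-24). The receptor NOTCH3 rose in TC-71 from 126, 124 and 132 CPM to 333, 349 and 341 CPM, with overlapping groups in TC-32, and the target HEY1 rose there from 18.1, 17.2 and 20.1 CPM to 96.3, 98.3 and 101 CPM and fell in TC-32 from 35.9, 35 and 33.8 CPM to 28, 24.4 and 26.1 CPM. NRARP, another target, fell in both lines and further in TC-32, a difference of -1.38 (SE 0.197, adjusted p = 6.06e-08).

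Retinoic acid genes differed in both directions. Retinoic acid is made from retinal by ALDH1A enzymes, carried by CRABP2 to its receptors and broken down by CYP26 enzymes. Of 16 genes, 8 were higher and 4 lower in TC-32. ALDH1A3 rose from 0.755, 1.32 and 0.903 CPM to 82.3, 87.7 and 80.9 CPM in TC-32 and fell from 8.56, 11.4 and 9.36 CPM to 4.66, 4.8 and 3.93 CPM in TC-71, a difference of 7.50 (SE 0.227, adjusted p = 3.09e-30), with 32.1% of its exon bases on the opposite strand of another gene. Its relative ALDH1A1 did the reverse, with 495, 518 and 488 CPM in siNeg and 285, 249.5 and 256 CPM in siFLI1 in TC-32 and 13.7, 10.4 and 12.2 CPM in siNeg and 34.9, 32.1 and 34.5 CPM in siFLI1 in TC-71. CYP26B1 rose in TC-32, from 4.11, 4.25 and 4.8 CPM to 11.1, 10.3 and 11.1 CPM, and fell in TC-71, from 146, 144 and 146 CPM to 59.1, 52 and 52.2 CPM. STRA6, the membrane receptor that takes up retinol, and DHRS3, a retinal reductase, rose in both lines and further in TC-71, with differences of -3.40 (SE 0.204, adjusted p = 1.12e-20) and -3.65 (SE 0.37, adjusted p = 8.38e-16).

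Collagen chains rose in both lines, 24 of 26 in TC-32 and 19 in TC-71, and 15 were higher and 6 lower in TC-32. COL7A1, the anchoring fibril collagen, went from 9.11, 10.0 and 11 CPM to 316, 392 and 347 CPM in TC-32 and from 27.4, 29.1 and 31.1 CPM to 60.7, 58.5 and 62.3 CPM in TC-71. COL21A1 rose from below 1 CPM to 57.8, 52.2 and 57.9 CPM in TC-32 and from 16.7, 16.4 and 16.9 CPM to 28.1, 28.4 and 27.4 CPM in TC-71, a difference of 6.23 (SE 0.291, adjusted p = 1.34e-27). COL11A1, a chain of cartilage fibrils, had a difference of -6.37 (SE 0.509, adjusted p = 2.68e-25) in the other direction. It rose from 0.0333, 0.0453 and 0.127 CPM to 10.1, 10.8 and 11 CPM in TC-71 and from 253, 259.6 and 255 CPM to 432, 436 and 431 CPM in TC-32. COL9A3 and COL27A1 rose in TC-32 and fell in TC-71.

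Matrix glycoproteins differed in both directions too. FN1, fibronectin, the main adhesive protein of the matrix, went from 25.2, 24.6 and 29.1 CPM to 6623, 6997 and 7225 CPM in TC-71. In TC-32 it was already at 13510, 12980 and 12650 CPM and went to 36460, 36880 and 35570 CPM, so the log2 fold changes were 8.04 and 1.48 and the difference was -6.56 (SE 0.0643, adjusted p = 1.16e-41). DCN, decorin, had the reverse, with 0.189, 0.0851 and 0.0475 CPM in siNeg and 6.4, 8.38 and 6.5 CPM in siFLI1 in TC-32 and 16.9, 16.1 and 14.9 CPM in siNeg and 32.7, 28.7 and 27.4 CPM in siFLI1 in TC-71. Over 30 genes, 9 were higher and 12 lower in TC-32, and FBLN1 rose in TC-32 and fell in TC-71. In the protease list, PLAUR, the urokinase receptor, fell in TC-32 and rose in TC-71, and TIMP1 did the reverse, with differences of -2.02 (SE 0.137, adjusted p = 4.44e-16) and 1.89 (SE 0.0688, adjusted p = 1.44e-24).

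Among 30 integrin and focal adhesion genes, 10 were higher and 13 lower in TC-32. ITGB5, which pairs with the alpha V integrin, fell from 187, 186 and 192 CPM to 117, 123 and 112 CPM in TC-32 and rose from 21.1, 17.9 and 19.4 CPM to 130.3, 137 and 136 CPM in TC-71, a difference of -3.47 (SE 0.075, adjusted p = 4.55e-32). ITGA11, a collagen receptor, had 0 counts in TC-71 siNeg and 15.8, 16.4 and 18.3 CPM in siFLI1, at least 124-fold higher against the floor of 3 counts per library, and went from 1.13, 1.28 and 1.47 CPM to 65.7, 72.6 and 67.2 CPM in TC-32. PXN, paxillin, ITGB4 and ITGA2 rose in TC-32 and fell in TC-71, and 27.2% of the exon bases of PXN overlap the opposite strand.

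Energy metabolism differed as well. Glycolysis and hypoxia-type genes split, 10 higher and 16 lower in TC-32 of 31 tested, and 8 were opposite. PKM, pyruvate kinase, the last step of glycolysis, fell from 1977, 1983 and 2029 CPM to 1213, 1317 and 1233 CPM in TC-32 and rose from 1168, 1109 and 1178 CPM to 1555, 1523 and 1528 CPM in TC-71, a difference of -1.08 (SE 0.0542, adjusted p = 4.55e-20). SLC2A3, the glucose transporter GLUT3, fell from 119.8, 118 and 113 CPM to 42.4, 40.5 and 39.4 CPM in TC-32 and rose slightly in TC-71, from 24.1, 25.2 and 23.3 CPM to 30.2, 27.7 and 28.4 CPM. SLC2A1, GLUT1, and VEGFA, a growth factor of blood vessels, rose in TC-32 and fell in TC-71, with differences of 0.45 (SE 0.0846, adjusted p = 1.55e-05) and 1.24 (SE 0.079, adjusted p = 1.07e-16). PFKFB3 and PFKFB4, which set the level of the activator of phosphofructokinase, went opposite ways to each other in each line, with differences of -1.50 (SE 0.0663, adjusted p = 8.78e-22) and 1.86 (SE 0.113, adjusted p = 1.34e-17). HK2 and PFKP, a hexokinase and a phosphofructokinase, fell in both lines and further in TC-32, with log2 fold changes of -2.27 and -2.10 against -0.58 and -0.47.

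Nuclear genes of respiratory complex I, the entry of electrons from NADH, fell in TC-32 for 33 of 35 and in TC-71 for 29. The effect was lower in TC-32 for 28 and higher for 0, with medians of -0.71 and -0.32. NDUFS6 went from 71, 75.8 and 75.9 CPM to 27.8, 25.1 and 29.2 CPM in TC-32 and from 73.8, 68.2 and 71.5 CPM to 54.3, 52.7 and 49.5 CPM in TC-71, a difference of -0.99 (SE 0.0831, adjusted p = 2.57e-13). NDUFB6 and NDUFS8 had differences of -0.81 (SE 0.104, adjusted p = 1.24e-08) and -0.80 (SE 0.0842, adjusted p = 1.3e-10). NDUFA13 and NDUFC2 were called in opposite directions, but they share 21% and 18.6% of their exon bases on their own strand and stood between 2.77 and 7.72 CPM in TC-71 and between 33 and 117 CPM in TC-32, so they are uncertain.

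**Figure D5:**
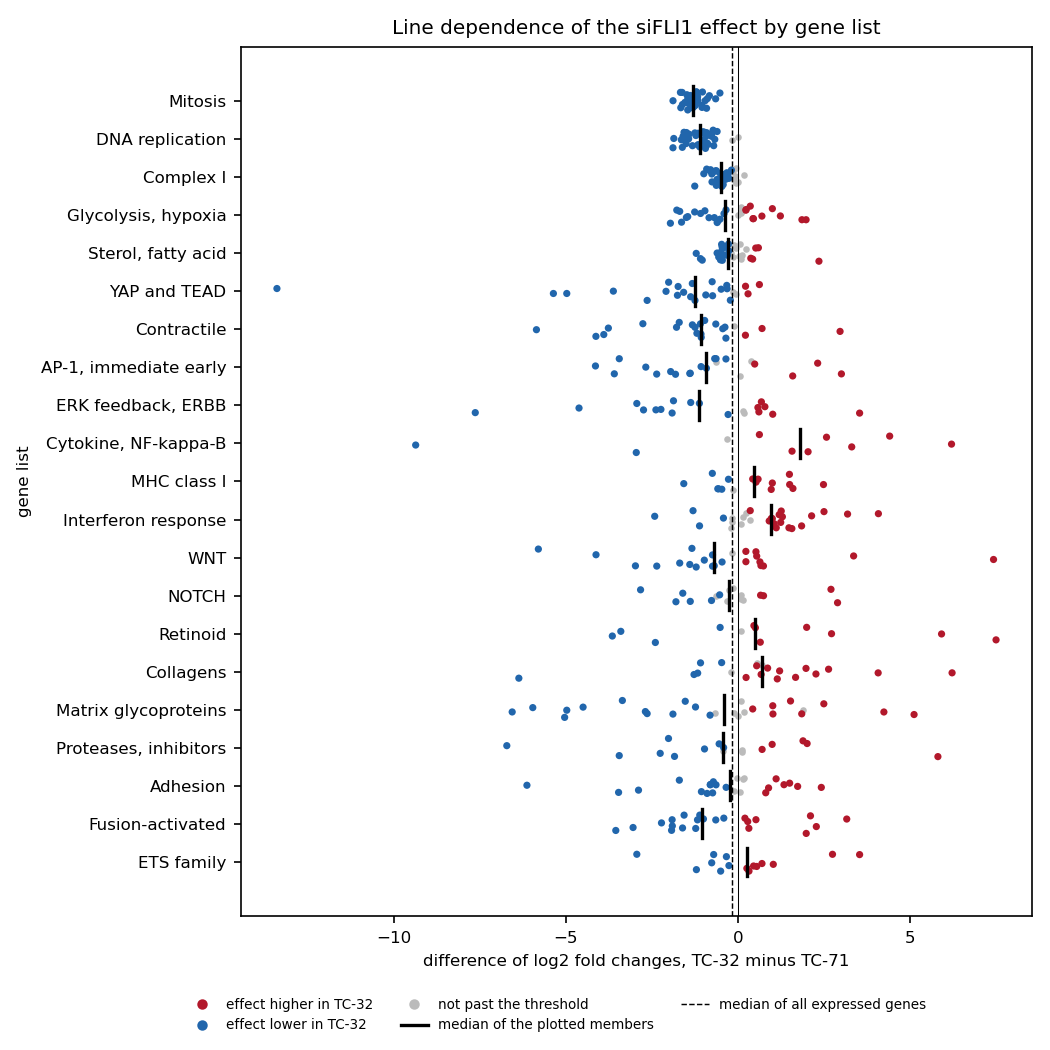
Difference of the log2 fold changes, TC-32 minus TC-71 (x axis), for each member of 21 gene lists (y axis) with at least 1 CPM on average in each line; colours mark members whose effect was higher (red) or lower (blue) in TC-32, black bars the list medians and the dashed line the median of all such genes (-0.16). All 36 mitosis genes lie left of 0, and the leftmost point, ANKRD1, depends on the prior count because TC-71 siNeg had 0 counts.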

How the data were processed

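Messenger RNA libraries of TC-32 and TC-71 were made with a stranded kit, per the labels' protocols. The authors deposited expected counts for TC-32 (RSEM) and counts for TC-71 (Subread), by the names of the tables, with neither kind scaled. The submitters' processing notes list cutadapt 4.4, STAR 2.7.3, Subread 2.0.3, featureCounts, limma 3.38.3 and GRCh38, with no role given. The strand setting and annotation release are not given in the sources used here. The column names carry the siRNA and replicate but not the line, which rests on the table's name.

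Expected counts were rounded and the 12 libraries fitted in edgeR 4.0.16 (R 4.3.3) with 4 group means: filterByExpr by group, TMM scaling, the robust quasi-likelihood F-test and Benjamini-Hochberg adjustment at 0.05. The differing effect was the interaction contrast. Log2 fold changes use the default prior count of 0.125. A count of 0 allows up to 3 counts, which covers counting error only, since reads carry no molecular identifiers. The fit was tested on simulated data. Positions and exon overlaps came from GENCODE 44, and promoters from RefSeq (GRCh38.p14), read with Python 3.11.15; the motifs were chosen after the data were seen.

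The contrast, the 40 gene lists and the rules were chosen with earlier results of these data known. The text names FLI1, EWSR1, TNS3 and ETS1. To these come 6 opposite genes per direction with the largest smaller change, 5 per direction that responded in one line only with the largest difference, and 4 per line silent in the other. All but the silent ones have at least 1 CPM in each line. Of each list, 2 to 6 differing members in order of the difference and the opposite members were named. NFKB2, TAP1, VCAM1, WWTR1, IFI44, NLRC5 and the genes not passing the test were named outside these rules where not covered by them. Some genes that the rules select are not reported here. Alternatives were RLE factors, library size, other low-count filters, DESeq2 1.42.0, limma-voom (limma 3.58.1), all 18 libraries, unrounded or whole expected counts, the replicate block, each library left out, and other fold and interval bounds.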

Additional observations from a re-analysis of the deposited data

Results flagged for a closer look

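Each result here was singled out because the effect of siFLI1 differed between the lines by a direct test of that difference, the contrast of both effects in edgeR. The test passed for 10342 genes, and 1385 of these were called in opposite directions. The 12 genes named as opposite had differences, TC-32 minus TC-71 on the log2 scale, of 4.54 for PPFIA4, 4.64 for ADRA1B, 7.43 for SFRP1, 6.10 for FMNL1, 4.24 for MAB21L3 and 3.56 for SNORC. In the reverse direction the differences were -9.37 for IL33, -4.05 for ATP1B1, -4.14 for NR4A3, -3.19 for PCDH19, -3.47 for TSPAN12 and -3.08 for C6orf141. The value of IL33 is a fitted one that depends on the prior count, since each TC-71 siNeg library held at most 3 counts. These genes were chosen for large opposite changes, so the size of their differences is a description.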

How the results depend on the processing

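The counts of differing, line-specific and opposite genes stayed within 1.5 times the values reported under RLE factors, DESeq2, limma-voom, scaling by library size, a minimum mean of 10 counts, no filter on low counts, all 18 libraries, unrounded expected counts, each line fitted alone (counts within a line only), genes with whole expected counts and the replicate block. With the block, 10031 genes differed, 13775 changed in TC-32, 12075 in TC-71, 1315 were opposite, 521 responded in TC-32 only and 172 in TC-71 only. Equal replicate numbers did not pair the libraries, with correlations of their deviations of 0.093, -0.188 and -0.020 in TC-32 and 0.069, 0.031 and -0.207 in TC-71. Leaving out each library in turn gave 9721 to 10182 differing genes, 13629 to 14209 changed in TC-32, 11678 to 12669 changed in TC-71, 1260 to 1383 opposite, 490 to 569 in TC-32 only and 142 to 181 in TC-71 only. Of the genes reported, 1245 of 1385 opposite, 471 of 545 TC-32 only and 147 of 173 TC-71 only genes were found again under RLE factors. Fewer were found again in some settings: 1185, 435 and 141 under DESeq2, and 1158, 448 and 125 without TC-32 siFLI1 replicate 3.

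By construction, stricter definitions gave fewer genes: 185 opposite at 2-fold, 59 in TC-32 only and 23 in TC-71 only at 4-fold, and 93 and 37 with the other line inside -0.25 to 0.25. An alternative added after seeing the data kept genes with whole expected counts and under 5% exon overlap. It tested 9626 genes, of which 5252 differed (54.6%), 7028 changed in TC-32, 6614 in TC-71, 746 were opposite, 297 responded in TC-32 only and 105 in TC-71 only. The share of differing genes that were higher in TC-32 was 41.3% as reported, 47.2% under RLE factors and 49.3% in that alternative, and the median difference of expressed genes went from -0.16 to -0.08 under RLE factors. For 35 ribosomal protein genes that differed among 75 tested, the split was 30 higher and 5 lower in TC-32, and under RLE factors it was 44 and 1.

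Of the 44 genes named outside the lists, none changed direction. TNS3 lost its call without TC-71 siNeg replicate 3 (difference 2.08, adjusted p = 0.877), KRT15 without TC-71 siNeg replicate 1 (5.23, adjusted p = 0.983), and EWSR1, whose difference was -0.21, with no filter (-0.16, adjusted p = 0.0598) and without TC-32 siFLI1 replicate 1 (-0.11, adjusted p = 0.0977) or 3 (-0.13, adjusted p = 0.0747). With limma-voom the differences of UBD, ANGPTL7, CDKN2B, ADAMTS5, ANOS1 and TRIL passed the threshold, at adjusted p from 2.18e-09 to 0.00183. Counting limma-voom, ADAMTS5 passed in 4 of 23 settings and CDKN2B and TRIL each in 2 of 23. UBD and ANGPTL7 each passed in 2 of 22, and ANOS1 in limma-voom alone. The cause was not tested. Depth limits genes near 3 counts, 0.0715 to 0.143 CPM per library.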

Other observations

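Axon guidance genes, which steer growing nerve fibres, were also divided between the lines: 30 of 37 tested differed, 14 higher and 16 lower in TC-32, and 6 were opposite. NTN1, the secreted cue netrin-1, rose from 0.236, 0.298 and 0.0951 CPM to 13.1, 16.1 and 12.4 CPM in TC-32 and fell from 16.7, 16.4 and 14.9 CPM to 9.49, 8.79 and 8.61 CPM in TC-71, a difference of 6.84 (SE 0.42, adjusted p = 7.57e-25). EPHA7, an ephrin receptor, did the reverse, with log2 fold changes of -4.45 and 0.68, and so did SEMA3A, a repulsive semaphorin, with -0.84 and 1.76. EPHB3 rose from 10.8, 11.5 and 11.1 CPM to 40.6, 43.7 and 40.7 CPM in TC-32 and fell from 21.4, 22.7 and 22.2 CPM to 12.3, 11.1 and 10.4 CPM in TC-71. SLIT2 and its receptor ROBO2 were called higher in TC-32 and lower in TC-71, at far lower levels in TC-32. Neuronal and secretory genes gave 5 opposite members of 29 tested, against 7.31% of all genes tested. In this list 51.7% differed, below the 54.6% of all genes tested and the 68.9% of expressed genes. SCG2, secretogranin II, fell from 58.8, 62.2 and 51.9 CPM to 25, 22.8 and 24.4 CPM in TC-32 and rose from 9.53, 9.88 and 10.3 CPM to 41.8, 42.4 and 48 CPM in TC-71, and SYT1, a calcium sensor of synaptic vesicles, had log2 fold changes of -0.83 and 0.57.

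Among 32 p53 target genes, 18 differed (56.2%, near the 54.6% of all genes tested and below the 68.9% of expressed genes), 10 higher and 8 lower in TC-32, and the 4 opposite members all rose in TC-32 and fell in TC-71. BTG2, an antiproliferative gene, went from 58.8, 59.3 and 56.7 CPM to 154, 153 and 145 CPM in TC-32 and from 73.4, 75.3 and 75 CPM to 41, 39.1 and 37.2 CPM in TC-71, a difference of 2.30 (SE 0.0722, adjusted p = 1.2e-26). SESN2, SESN1 and MDM2 had smaller differences of 0.99 (SE 0.116, adjusted p = 9.67e-09), 0.93 (SE 0.139, adjusted p = 3.17e-07) and 0.68 (SE 0.0847, adjusted p = 5.7e-08). In the sterol and fatty acid list, 5 of 32 were higher and 17 lower in TC-32, and 68.8% differed, as among expressed genes. HOXB9, of the HOX clusters that mark body position, rose from 8.87, 9.28 and 9.22 CPM to 22.4, 22 and 23.7 CPM in TC-32 and fell from 4.17, 4.17 and 5.03 CPM to 1.32, 1.14 and 1.22 CPM in TC-71, a difference of 3.18 (SE 0.183, adjusted p = 7.02e-19). Over 32 HOX genes, 9 were higher and 13 lower in TC-32, and again 68.8% differed.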
